A study of Mus musculus with 54 samples.

Results

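Cytokine receptor genes were followed in mouse hematopoietic stem cells (HSC), the rare bone marrow cells that renew all blood lineages. The set holds 10 of the 24421 genes in the deposited count table: Il21r, Il10ra, Il6st, Il6ra, Il1r1, Csf1r, Csf2rb, Csf3r, Ifngr1 and Ifnar1. They were chosen by name from earlier results on these libraries, so the differences between the groups used there are given here as a description, without a p-value. All 10 passed the filter on low counts.

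A cytokine receptor carries a signal from a secreted protein across the cell membrane. Most receptors of this set have no enzyme of their own and work through Janus kinases (JAK) bound to their tails, which phosphorylate STAT transcription factors, and SOCS proteins then damp the signal. Il1r1 signals through MyD88 and IRAK kinases instead, and the product of Csf1r is itself a tyrosine kinase. In the marrow such receptors let stem cells sense infection and inflammation, and several of them mark commitment to myeloid cells.

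The mice were C57BL/6 animals with ZsGreen in the Fgd5 locus, a gene active in HSC, and all groups carried this reporter. They received a single subcutaneous injection of dmPGE2, a derivative of prostaglandin E2 that lasts longer in the body, or of its ethanol vehicle. Irradiated groups were given 8.53 Gy, a dose lethal to 50% of mice, 30 min later. HSC were sorted at 1 h or 24 h by SLAM-LSK(wide) surface gating together with ZsGreen, so the sort itself depended on one HSC gene. The groups were irradiated vehicle (n = 8) and irradiated dmPGE2 (n = 8) at 1 h, the same pair at 24 h (n = 8 each), dmPGE2 without radiation at 1 h (n = 7) and vehicle without radiation (n = 15). The last group pools mice of 1 h and 24 h, since its columns name no time, and it received the ethanol injection too, so it is a vehicle baseline and not an untreated one. The labels state the injected amount as 35 µg, whereas the volume and stock they give, 3.5 µl of 0.1 mg per ml, come to 0.35 µg.

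Libraries held 15049364 to 26217041 counted reads. The HSC markers Fgd5, Procr, Slamf1 and Hlf had reads in all 54 libraries. Their group means followed different patterns. Procr was highest in irradiated dmPGE2 HSC at 24 h (164 CPM) and lowest in irradiated vehicle HSC at 1 h (103 CPM). Slamf1 was highest with dmPGE2 alone (59.1 CPM) and lowest in irradiated vehicle HSC at 24 h (32.8 CPM). Fgd5 and Hlf had their highest group means in non-irradiated vehicle HSC (97.4 and 423 CPM). Their lowest were in irradiated vehicle HSC at 24 h (57.6 and 243 CPM). A list of 15 genes set up as HSC markers, Cd34 and Cd48 among them, summed to 4939 to 6745 CPM and 3313 to 4380 CPM in these groups. Group means of 13 of the 15 were lower in irradiated vehicle HSC at 24 h and those of 2 were higher. CPM are read counts scaled to library size, for the receptors with TMM factors. Lymphocyte markers were mixed. Pax5 had no read in 50 of 54 libraries, Ms4a1 in 43 and Cd8a in 40, whereas Cd79b, Nkg7, Lck and Klrb1c had reads in all 54, at group means of 42.4 to 71.3, 42.7 to 122, 16.1 to 22.4 and 8.83 to 20.7 CPM. The summed level of 13 neutrophil markers ranged from 279 to 1792 CPM in non-irradiated vehicle libraries, and at 24 h it had a median of 111 CPM with vehicle against 507 CPM with dmPGE2. In bulk RNA, fewer cells of a type and less RNA per cell cannot be told apart.

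Whether the 15 baseline libraries come from 15 separate mice is not clear. Their columns carry only 8 tags, 7 of which occur in both of 2 runs of library numbers. After centring each gene on its group mean and leaving out Xist and Y-linked genes, same-tag libraries of the 2 runs correlated at 0.067 to 0.356 across genes, against -0.268 to 0.054 for other pairs, and each of the 7 correlated best with its own tag. Receptor levels matched as well: Ifngr1 differed by a median of 0.049 on the log2 scale between same-tag libraries and by 0.249 between others, and Csf3r by 0.103 against 0.373. Neutrophil marker sums of 1660 and 1792 CPM, or 279 and 279 CPM, recurred within a tag. The 2 libraries of a tag were of 1 sex in 7 of 7 pairs by Xist and Y-linked genes, which gave 5 female and 10 male libraries in all where the labels give 7 and 8. Same-tag libraries of dmPGE2 alone and baseline, which differ in treatment, correlated at 0.011 to 0.412. Whether the 2 baseline libraries of a tag come from 1 mouse was not tested. If they do, p-values against this group are too small. Each such comparison was therefore also fitted with same-tag libraries summed, and with only the baseline libraries of the run that holds the other group; calls that were lost are named beside the result.

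**Figure D1:**
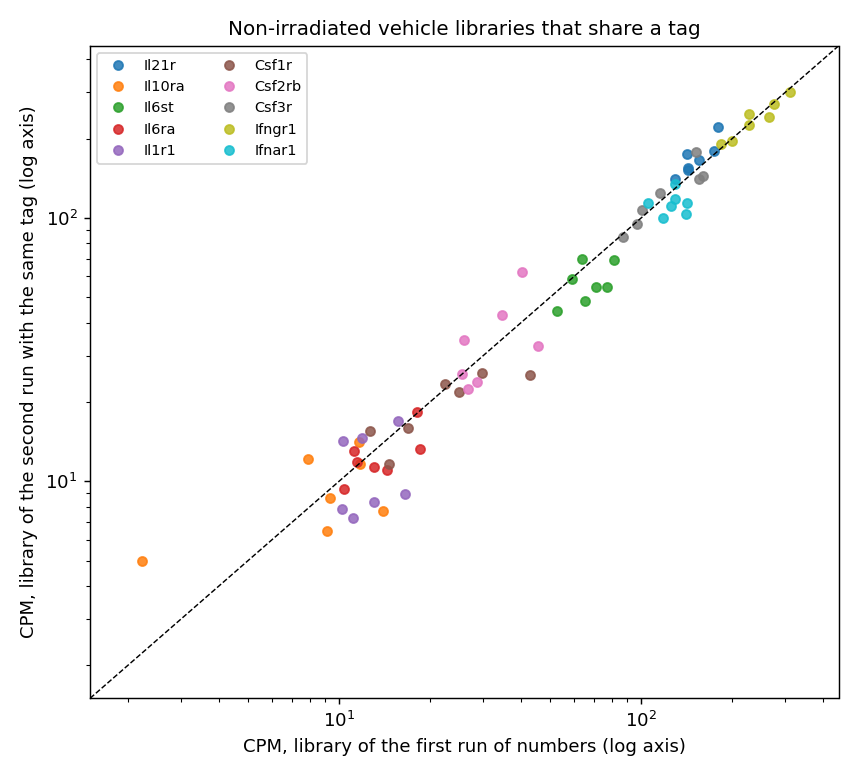
Receptor levels (CPM, log axes) in the 7 pairs of non-irradiated vehicle libraries that share a tag, the first run of library numbers on the x axis and the second on the y axis, with 1 colour per gene and a dashed line of equality. Ifngr1 and Csf3r points lie close to the line, whereas Il10ra and Il1r1, which have few reads, scatter more.

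At 24 h with radiation and dmPGE2, libraries 5, 6 and 7, all from males, stood apart from the other 5. Their Il10ra levels were 149.6, 65.5 and 47.4 CPM against 3.63 to 11.2 CPM in the others, and their Csf2rb levels were 343, 171 and 144 CPM against 43.95 to 86.3 CPM. The summed level of the 15 genes on the HSC list, which holds Cd34 and Cd48 too, was also higher in them, at 5391, 6078 and 5842 CPM against 4160 to 4814 CPM. Results of this group that rest on these libraries are given with and without them. Why they differ was not tested.

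Promoter sequences of 7 of the 10 genes were taken from RefSeq. Those of 4 genes are shown because these moved in opposite directions at 1 h: Il21r and Ifngr1 were higher with dmPGE2, and Il6st and Ifnar1 were lower with it in irradiated HSC. Each window is the 250 bases before the RefSeq start on the plus strand of GRCm38.p6, which is the assembly of mm10: chr7:125603179-125603428 for Il21r, chr10:19591699-19591948 for Ifngr1, chr13:112463820-112464069 for Il6st and chr16:91484965-91485214 for Ifnar1. Capitals mark a match to any of the motifs searched.
Il21r: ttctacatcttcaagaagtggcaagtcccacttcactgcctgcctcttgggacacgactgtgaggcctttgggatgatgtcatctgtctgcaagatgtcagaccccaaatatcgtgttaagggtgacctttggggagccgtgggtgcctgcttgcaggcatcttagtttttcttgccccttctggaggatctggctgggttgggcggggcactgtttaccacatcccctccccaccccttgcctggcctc
Ifngr1: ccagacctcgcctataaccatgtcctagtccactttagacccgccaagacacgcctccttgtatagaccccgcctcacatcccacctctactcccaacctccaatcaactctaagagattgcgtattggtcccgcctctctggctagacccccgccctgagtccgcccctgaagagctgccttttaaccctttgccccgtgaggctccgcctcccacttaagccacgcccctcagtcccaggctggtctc
Il6st: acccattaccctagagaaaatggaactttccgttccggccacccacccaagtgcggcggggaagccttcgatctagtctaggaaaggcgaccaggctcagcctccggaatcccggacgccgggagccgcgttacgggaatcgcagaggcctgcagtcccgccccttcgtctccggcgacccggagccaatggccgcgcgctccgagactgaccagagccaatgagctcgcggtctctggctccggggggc
Ifnar1: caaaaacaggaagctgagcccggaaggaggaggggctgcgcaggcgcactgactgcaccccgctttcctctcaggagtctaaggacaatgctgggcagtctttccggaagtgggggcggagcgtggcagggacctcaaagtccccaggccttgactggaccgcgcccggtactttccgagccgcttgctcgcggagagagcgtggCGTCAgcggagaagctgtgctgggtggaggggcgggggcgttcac
The motifs, searched on both strands, were the cAMP response element TGACGTCA and its core TGACG, which lies within it, the STAT-binding TTCNNNGAA, the interferon-stimulated core GAAANNGAA and the AP-1 site TGANTCA. The only match in the 4 windows was TGACG, read as CGTCA on the strand shown, 45 bases before the start of Ifnar1. It was not particular to that gene. In the windows searched but not shown, TGACG also lay 23 bases before a start of Il1r1 and 236 bases before that of Il6ra. TGACG occurs in 17.8% of all 32851 promoter windows of this length, TTCNNNGAA in 7.02%, GAAANNGAA in 7.13%, TGANTCA in 6.75% and TGACGTCA in 1.55%. These letters are not in the Il21r, Ifngr1 and Il6st windows.

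Per length of transcript, Ifngr1 was the most abundant receptor of the set in non-irradiated vehicle HSC, at 114 ± 18.6 RPKM (CPM per kilobase of exon, SD, n = 15). Il21r followed at 61.02 ± 9.19 RPKM, then Csf3r at 30.5 ± 7.33 RPKM and Ifnar1 at 17.1 ± 1.88 RPKM, each apart from its neighbour by more than their SDs. From Il6st at 11.2 ± 2.08 RPKM downwards, through Csf2rb, Csf1r, Il6ra and Il10ra to Il1r1 at 2.32 ± 0.65 RPKM, neighbouring genes overlapped within their SDs. The order changed with treatment at the top: Il21r ranked below Ifngr1, Csf3r and Ifnar1 in irradiated vehicle HSC at 1 h and first in irradiated vehicle HSC at 24 h, at 105 ± 10.6 RPKM against 69.2 ± 9.86 RPKM for Ifngr1 (n = 8).

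**Figure D2:**
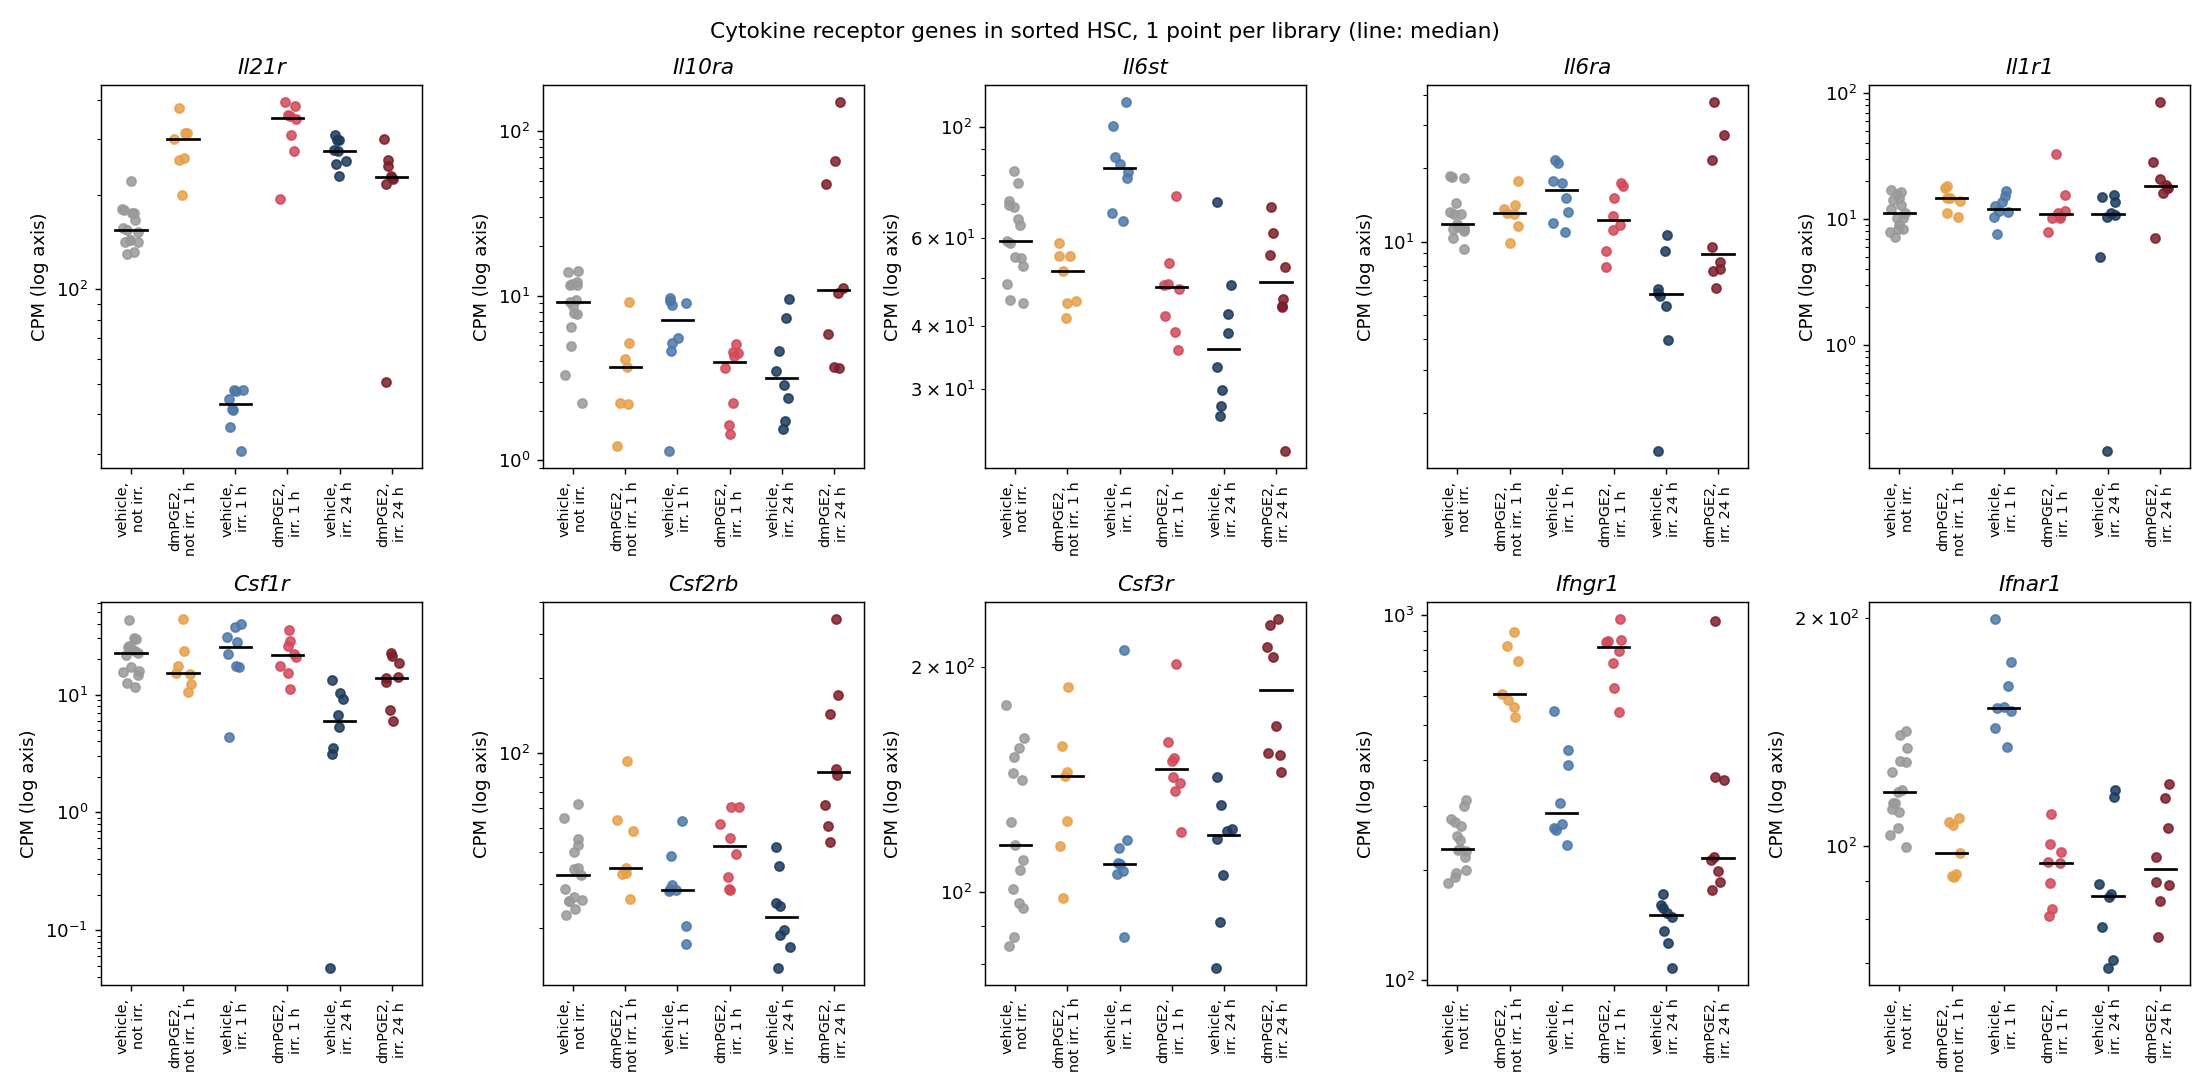
CPM (log axis) of each receptor gene in every library, 1 point per library and a line at the group median, for the 6 groups. Il21r in irradiated vehicle HSC at 1 h lies below every library of the other groups, and Ifngr1 is high in both dmPGE2 groups at 1 h.

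The 4 comparisons with baseline were tested with edgeR's quasi-likelihood test and Benjamini-Hochberg adjustment over 14320 genes; they share the baseline libraries. The earlier results left the baseline libraries out but used the other group of each comparison, and whether the choice of genes drew on the baseline is not known, so these p-values may not be independent of that choice. With dmPGE2 alone, 2 of the 10 receptors rose (5.28% of all genes rose) and 1 fell (5.82% of all genes). Radiation with vehicle raised 2 (8.65%) and lowered 1 (7.31%) at 1 h, and at 24 h it raised 1 (23.3%) and lowered 6 (26.5%). Irradiated dmPGE2 HSC at 24 h had 6 receptors higher (19%) and 1 lower (17.3%) than baseline. Groups did not overlap for 1 receptor with dmPGE2 alone (2.63% of all genes), 1 with radiation at 1 h (3.17%), 2 with radiation at 24 h (10.6%) and 0 for irradiated dmPGE2 at 24 h (3.21%). Median log2 fold changes of the 10 genes were 0.09 with dmPGE2 alone and 0.12 with radiation at 1 h. They were -0.57 with radiation at 24 h and 0.47 for irradiated dmPGE2 at 24 h. Medians over all genes lay between -0.06 and 0.00. The count of 6 receptors higher and the median of 0.47 include libraries 5 to 7 of that group. Without these libraries Il10ra (-0.37), Il6ra (-0.73) and Ifngr1 (-0.27) were below 0 against baseline. Csf2rb (0.89) and Csf3r (0.64) stayed above 0.

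Which comparisons entered the choice of genes is not known, and those that follow may have done so. With dmPGE2 in irradiated HSC at 1 h, 2 receptors were called higher (7.04% of all genes) and 2 lower (7.77%). At 24 h 7 were called higher (12.4%) and 0 lower (11.5%). Without libraries 5 to 7 only Csf2rb and Csf3r were called higher at 24 h (3.94% of all genes). Groups did not overlap for 2 receptors at 1 h (4.39% of all genes) and 3 at 24 h (1.96%). Radiation under dmPGE2 at 1 h had 0 called higher (0.356%), 0 lower (0.0209%) and 0 that did not overlap (0.391%), with log2 fold changes of the 10 genes from -0.21 to 0.20. The dmPGE2 response differed between 24 h and 1 h for 6 receptors, 5 of them higher (12.9%) and 1 lower (12.6%) at 24 h. It differed between irradiated and non-irradiated HSC at 1 h for 2, of which 1 was higher (1.17%) and 1 lower (1.8%) with radiation. This last contrast also uses the baseline libraries. Nothing is read from these shares.

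**Figure D3:**
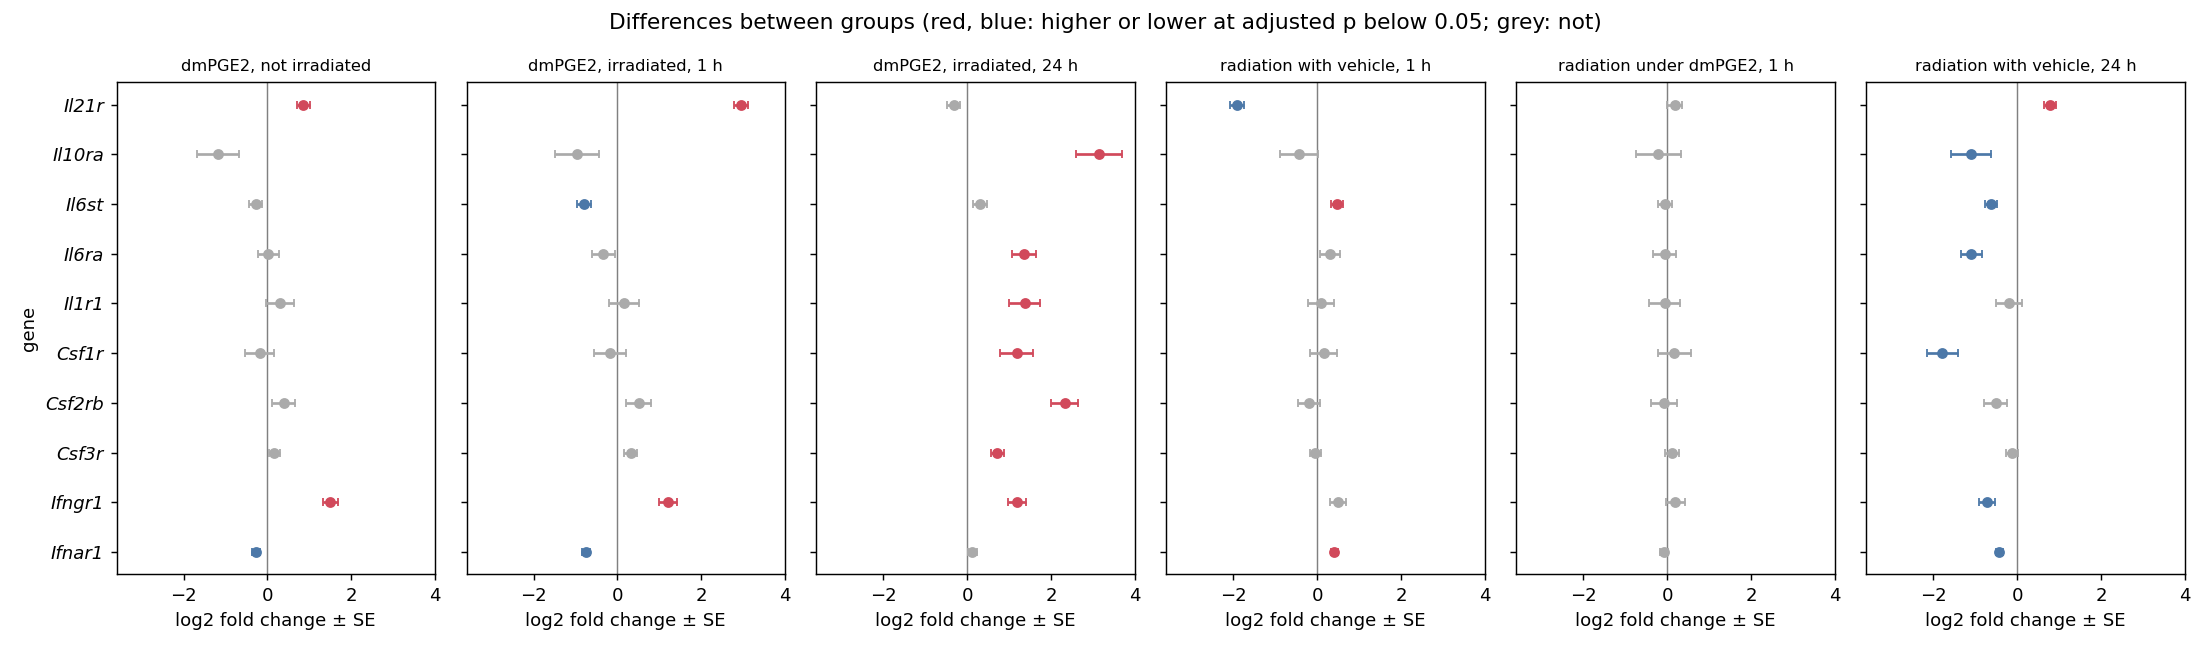
Log2 fold change ± SE (x axis) of each receptor gene (y axis) in 6 comparisons, red or blue where called higher or lower at an adjusted p below 0.05 and grey where not. Il21r is far to the left for radiation with vehicle at 1 h (-1.92) and far to the right for dmPGE2 in irradiated HSC at 1 h (2.95), and all genes lie near 0 for radiation under dmPGE2.

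Il21r encodes the IL-21 receptor, which pairs with the common gamma chain and is best known in lymphocytes. It lies at chr7:125603429-125633570 (mm10, plus strand). Baseline libraries had 129 to 221 CPM (median 154 CPM), and irradiated vehicle libraries at 1 h had 30.6 to 47.9 CPM (median 43.1 CPM), with no overlap. Il21r thus fell by 1.92 on the log2 scale within 1 h of radiation (SE 0.16, edgeR adjusted p = 6.58e-15). Where dmPGE2 had been given before radiation, libraries had 194 to 393 CPM (median 352 CPM), above every irradiated vehicle library and above the baseline median.

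dmPGE2 alone also raised Il21r, to 199.5 to 378 CPM (median 301 CPM) against baseline, by 0.86 on the log2 scale (SE 0.14, edgeR adjusted p = 1.06e-05). The lowest of these 7 libraries lay within the baseline range. Between irradiated groups at 1 h the log2 difference was 2.95 (SE 0.18), so the dmPGE2 difference was 2.09 log2 units (SE 0.23) larger with radiation than without. Under dmPGE2, irradiated and non-irradiated HSC differed by 0.17 (SE 0.17), and their ranges overlapped.

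At 24 h the loss of Il21r seen with vehicle at 1 h was no longer present. Irradiated vehicle libraries had 229 to 309 CPM (median 275 CPM), all above every baseline library, a rise of 0.79 on the log2 scale (SE 0.14, edgeR adjusted p = 4.67e-06). Irradiated dmPGE2 libraries had a median of 227 CPM, with 7 of 8 between 216 and 300.4 CPM and library 5 at 50.7 CPM. Against baseline this group rose by 0.46 (SE 0.14, edgeR adjusted p = 0.00763), a call that was lost with only the baseline libraries of the same run (0.38, SE 0.18). Summed levels of 10 T and NK cell markers moved with the vehicle group at 24 h. They were 63.2 to 160 CPM at baseline (mean 106 CPM) and 119 to 223 CPM (mean 166 CPM) in irradiated vehicle HSC at 24 h. The rise was mostly in Nkg7 (60.9 and 122 CPM), and the group means of 6 of the 10 were higher. In irradiated vehicle HSC at 1 h the sum averaged 79.6 CPM, and the means of all 10 were below baseline. With dmPGE2 before radiation it averaged 83.3 CPM at 1 h, where Il21r was highest. The sum of 8 B-cell markers, mostly Cd79b (63.2 and 68.5 CPM), had ranges of 55.8 to 77.6 and 61.7 to 85.1 CPM, while Ms4a1 and Pax5 averaged at most 0.47 CPM in any group. The part of lymphocyte RNA in the Il21r values was not tested. Il2rg, the common gamma chain, was at 295 ± 39.4 CPM (n = 15) at baseline and was not called in irradiated vehicle HSC at 1 h (0.07, SE 0.12), whereas it rose at 24 h (0.38, SE 0.12, edgeR adjusted p = 0.00777).

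Il10ra encodes the ligand-binding chain of the receptor for IL-10, an anti-inflammatory cytokine, at chr9:45253839-45269146 (minus strand). It was a low gene, at 2.23 to 14.1 CPM (median 9.13 CPM) in baseline libraries and 1.23 to 9.14 CPM (median 3.71 CPM) with dmPGE2 alone, a difference that did not pass the test (-1.18, SE 0.50, edgeR adjusted p = 0.136). It was called lower with only these groups in the fit (-1.18, SE 0.34, edgeR adjusted p = 0.0182). At 24 h with radiation and vehicle it fell to 1.54 to 9.52 CPM (median 3.17 CPM), by 1.11 on the log2 scale (SE 0.48, edgeR adjusted p = 0.049), a call lost under several alternatives, among them same-tag libraries summed (-1.05, SE 0.55).

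With radiation and dmPGE2 at 24 h Il10ra spanned 3.63 to 149.6 CPM. Libraries 5, 6 and 7 held the values above 11.2 CPM, and the other 5 overlapped the vehicle range of 1.54 to 9.52 CPM. The log2 difference from irradiated vehicle was 3.15 (SE 0.56). It was not called with a block on column tags (2.08, SE 0.69) or with sex as a covariate (2.51, SE 0.85). Without libraries 5 to 7 it was 0.73 (SE 0.43) and not called. Against baseline the rise of 2.04 (SE 0.43, edgeR adjusted p = 0.000164) became -0.37 (SE 0.40) without them. The second IL-10 receptor chain, Il10rb, had 84.2 ± 11.1 CPM (n = 15) at baseline, fell at 24 h with radiation and vehicle (-0.55, SE 0.10, edgeR adjusted p = 1.58e-05) and had 96.3 ± 28.6 CPM (n = 8) with radiation and dmPGE2, or 79.8 ± 3.17 CPM (n = 5) without libraries 5 to 7.

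Il6st encodes gp130, the signalling chain shared by the receptors of IL-6, IL-11, LIF and oncostatin M, at chr13:112464070-112506860 (plus strand). Baseline libraries had 44.5 to 81.6 CPM (median 59.2 CPM), and irradiated vehicle libraries at 1 h had 64.9 to 111.7 CPM (median 82.6 CPM), overlapping in part. This was a rise of 0.47 on the log2 scale (SE 0.14, edgeR adjusted p = 0.0159). The call was lost with same-tag libraries summed (0.47, SE 0.17), with baseline libraries of the same run (0.38, SE 0.17) and without irradiated vehicle library 4 (0.41, SE 0.15). Irradiated dmPGE2 libraries at 1 h had 35.8 to 72.5 CPM (median 47.96 CPM), 0.80 lower on the log2 scale than irradiated vehicle (SE 0.17), with 1 library reaching into the vehicle range. By 24 h with vehicle Il6st had fallen to 26.4 to 70.8 CPM (median 36.0 CPM), 0.62 below baseline (SE 0.15, edgeR adjusted p = 0.000423). With radiation and dmPGE2 at 24 h it had 22.6 to 69.2 CPM (median 48.98 CPM), not called against baseline (-0.31, SE 0.15, edgeR adjusted p = 0.0907), though called lower without libraries 5 to 7 (-0.44, SE 0.17).

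Il6ra, the IL-6 binding chain that signals through gp130 (chr3:89869324-89913162, minus strand), was lower in abundance. At baseline it had 9.37 to 18.6 CPM (median 11.8 CPM), and neither dmPGE2 alone (0.02, SE 0.25, edgeR adjusted p = 0.985) nor radiation at 1 h (0.30, SE 0.24, edgeR adjusted p = 0.474) passed the test. At 24 h with radiation and vehicle it fell to 1.40 to 10.6 CPM (median 6.09 CPM), by 1.10 on the log2 scale (SE 0.25, edgeR adjusted p = 0.000269). With radiation and dmPGE2 at 24 h libraries 5, 6 and 7 had 37.2, 27.3 and 21.6 CPM and the others 6.49 to 9.48 CPM. The log2 difference of 1.35 (SE 0.28) from irradiated vehicle was 0.37 (SE 0.24) without these libraries and then not called. Against baseline Il6ra was not called (0.26, SE 0.24, edgeR adjusted p = 0.421), but was called lower without these libraries (-0.73, SE 0.23). Exons of Il6ra overlap 242 bases of the antisense gene Gm42809, whose reads this unstranded method cannot separate.

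Il1r1, the signalling receptor of IL-1 (chr1:40225080-40316177, plus strand), showed no call at 1 h in any comparison. Baseline libraries had 7.26 to 16.9 CPM (median 11.1 CPM), and the 5 other groups had medians of 10.9 to 18.2 CPM. It was called higher only with radiation and dmPGE2 at 24 h, at 7.07 to 84.7 CPM (median 18.2 CPM), where library 5 held the 84.7 CPM. Against baseline the rise was 1.17 (SE 0.31, edgeR adjusted p = 0.00198), and without library 5 it was 0.62 (SE 0.29) and not called. The difference from irradiated vehicle, 1.37 (SE 0.37), was likewise 0.83 (SE 0.33) and not called without library 5. Irradiated vehicle library 8 at 24 h had 3 reads of Il1r1 (0.145 CPM). Il1rap, the second chain of this receptor, rose with radiation and vehicle at 1 h (0.38, SE 0.12, edgeR adjusted p = 0.0158).

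Csf1r encodes the receptor of macrophage colony-stimulating factor, a kinase that marks monocytes and macrophages. Baseline libraries had 11.6 to 42.8 CPM (median 22.5 CPM), and no comparison at 1 h was called. At 24 h with radiation and vehicle the gene fell to 0.0482 to 13.4 CPM (median 5.96 CPM), by 1.79 on the log2 scale (SE 0.37, edgeR adjusted p = 5.77e-05). Library 8 of that group had a single read, and 7 of 8 libraries lay below the lowest baseline library. Irradiated dmPGE2 libraries at 24 h had 5.97 to 22.6 CPM (median 13.9 CPM), which overlapped the vehicle group. Their log2 difference from it was 1.18 (SE 0.39), not called without library 6 (1.06, SE 0.40) or without libraries 5 to 7 (0.93, SE 0.44). Against baseline this group was not called (-0.61, SE 0.34, edgeR adjusted p = 0.161), except with only these groups in the fit (-0.62, SE 0.24, edgeR adjusted p = 0.0458). Summed levels of 13 monocyte and macrophage markers were 706 to 1262 CPM at baseline, 814 to 1142 CPM with vehicle and 735 to 1261 CPM with dmPGE2 at 24 h, so these ranges overlapped where Csf1r fell. Most of the sum was Lyz2, at 696 CPM at baseline and 661 CPM in irradiated vehicle HSC at 24 h. Group means of 11 of the 13 markers were lower with vehicle at 24 h than at baseline, among them C1qa (34.4 and 30.1 CPM) and C1qb (68.2 and 62.2 CPM) by little, and those of Cd68 (37.8 and 127 CPM) and Fcgr1 (3.78 and 6.22 CPM) were higher. The macrophage gene Adgre1 averaged 20.7 and 10.7 CPM in these groups, and it was the gene most like Csf1r over the 54 libraries (Pearson r = 0.82). The part of macrophage RNA in the Csf1r values was not tested. Exons of Csf1r overlap 873 bases of Hmgxb3 on the opposite strand.

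Csf2rb encodes the common beta chain of the receptors for GM-CSF, IL-3 and IL-5, at chr15:78325990-78351001 (plus strand). Its values are uncertain in part, since 18.4% of the 50-base words of its longest transcript also occur in the paralog Csf2rb2 and the treatment of reads that fit both is not given in the sources used here. Baseline libraries had 22.4 to 62.3 CPM (median 32.5 CPM), and no comparison at 1 h was called. Irradiated vehicle libraries at 24 h had 13.9 to 42.1 CPM (median 22.1 CPM), and irradiated dmPGE2 libraries had 43.95 to 343 CPM (median 84.1 CPM), with no overlap. The vehicle group was not called against baseline (-0.52, SE 0.27, edgeR adjusted p = 0.109), except with only these groups in the fit (-0.52, SE 0.20, edgeR adjusted p = 0.0336). The log2 difference between the 24 h groups was 2.33 (SE 0.32), and 1.41 (SE 0.27) without libraries 5 to 7. Against baseline Csf2rb rose by 1.81 (SE 0.25, edgeR adjusted p = 1.01e-07) and by 0.89 (SE 0.24) without those libraries, called in both. Csf2rb2 rose too, from 13.3 ± 3.86 CPM (n = 15) at baseline to 55.9 ± 38.2 CPM (n = 8), by 2.07 (SE 0.23, edgeR adjusted p = 1.07e-10), and had 30.1 ± 6.30 CPM (n = 5) without libraries 5 to 7 (1.17, SE 0.21, edgeR adjusted p = 1.39e-05). Csf2ra, the GM-CSF binding chain, had 24.1 ± 9.27 CPM (n = 8) there against 21.9 ± 4.15 CPM (n = 8) with vehicle and was not called (0.14, SE 0.16).

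Csf3r encodes the receptor of granulocyte colony-stimulating factor, present on HSC and high on neutrophils, at chr4:126024659-126044975 (plus strand). It varied little at 1 h: baseline libraries had 84.8 to 178 CPM (median 115.5 CPM), and the 3 other groups of 1 h had medians of 109 to 146 CPM. Neither dmPGE2 alone (0.17, SE 0.14, edgeR adjusted p = 0.557) nor radiation at 1 h (-0.04, SE 0.13, edgeR adjusted p = 0.896) or at 24 h (-0.12, SE 0.13, edgeR adjusted p = 0.465) passed the test with vehicle.

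At 24 h irradiated vehicle libraries had 79.2 to 142 CPM of Csf3r (median 119 CPM) and irradiated dmPGE2 libraries 144.5 to 232 CPM (median 186 CPM), with no overlap. The log2 difference was 0.72 (SE 0.15), and unlike Il10ra it did not rest on libraries 5 to 7 (0.76, SE 0.17, without them). Against baseline Csf3r rose by 0.60 (SE 0.13, edgeR adjusted p = 0.000236), and by 0.64 (SE 0.15) without them. Neutrophil markers moved with it between the 24 h groups. Their sum was 90.4 to 606 CPM with vehicle and 286 to 928 CPM with dmPGE2. Between single libraries the match varied. The vehicle library with 606 CPM, library 8, had the highest Csf3r of its group. Baseline library 3, in contrast, had the highest sum of its group (1792 CPM) and the lowest Csf3r (84.8 CPM). In the 24 h dmPGE2 group, library 8 had the highest Csf3r (232 CPM) at a sum of 303.5 CPM. Library 2 of that group had the lowest Csf3r (144.5 CPM) at a sum of 839 CPM. Group means of 10 of the 13 markers were higher with dmPGE2 than with vehicle. Much of the difference in the sum came from the granule gene Prtn3, at 84.8 CPM with vehicle and 260 CPM with dmPGE2. The 3 that were lower were Elane (3.56 and 3.46 CPM), Mpo (38.8 and 30.3 CPM) and Ctsg (7.50 and 5.18 CPM). Levels of Ngp were 8.64 and 40.5 CPM, and those of the chemokine receptor gene Cxcr2 2.83 and 12.5 CPM. At baseline the neutrophil sum had a median of 564 CPM, above the 507 CPM with dmPGE2 at 24 h, while Csf3r was lower. Mpo alone averaged 325 CPM at baseline, and only Mpo, Elane and Ctsg of the 13 markers had higher means there than with dmPGE2 at 24 h; S100a8, for one, had 18.3 CPM at baseline and 64.9 CPM with dmPGE2. The part of neutrophil RNA in the Csf3r difference was not tested.

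**Figure D4:**
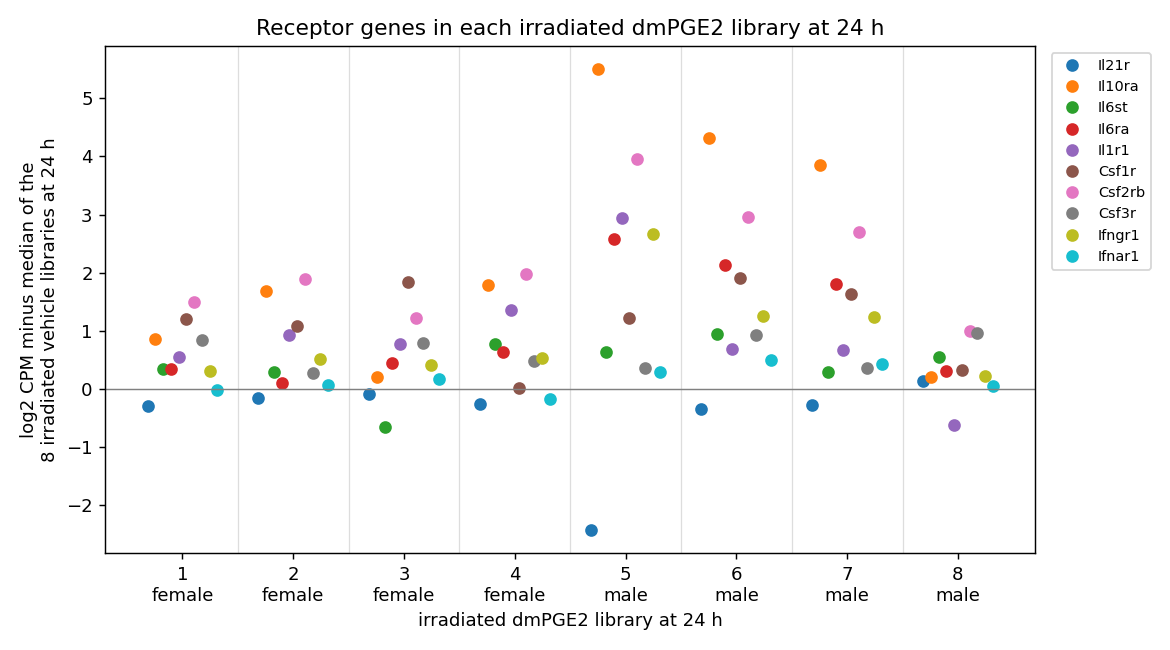
Log2 CPM of each receptor gene in the 8 irradiated dmPGE2 libraries at 24 h, minus the median of the 8 irradiated vehicle libraries at 24 h (y axis), by library and sex (x axis), with 1 colour per gene. Il10ra, Csf2rb, Il6ra and Ifngr1 are highest in libraries 5, 6 and 7, Il21r is low only in library 5, and Csf3r is above 0 in all 8.

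Ifngr1 encodes the ligand-binding chain of the interferon gamma receptor, at chr10:19591958-19610225 (plus strand). dmPGE2 alone raised it from 184 to 310.4 CPM (median 228 CPM) at baseline to 525.9 to 896 CPM (median 608 CPM), with no overlap. The rise was 1.504 on the log2 scale (SE 0.19, edgeR adjusted p = 1.8e-08). Irradiated vehicle libraries at 1 h had 234 to 544 CPM (median 286 CPM), not called against baseline (0.49, SE 0.18, edgeR adjusted p = 0.06), though called with DESeq2 (0.49, SE 0.18) and with only these groups in the fit (0.49, SE 0.13). Irradiated dmPGE2 libraries had 540.0 to 972 CPM (median 818 CPM), 1.21 higher than irradiated vehicle (SE 0.22), with 1 vehicle library inside the dmPGE2 range. The dmPGE2 difference with and without radiation differed by -0.29 (SE 0.29, 95% interval -0.86 to 0.27) and was not called.

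By 24 h Ifngr1 had fallen with radiation and vehicle to 108 to 172 CPM (median 150.4 CPM), below every baseline library, by 0.72 on the log2 scale (SE 0.19, edgeR adjusted p = 0.00167). With radiation and dmPGE2 it had 176 to 957 CPM (median 216 CPM), above every vehicle library of that time. The log2 difference between them was 1.19 (SE 0.22), 0.75 (SE 0.16) without library 5 and 0.45 (SE 0.15), no longer called, without libraries 5 to 7. Against baseline it rose by 0.48 (SE 0.18, edgeR adjusted p = 0.0363). This call was lost with same-tag libraries summed and with only the baseline libraries of the same run. The difference was 0.02 (SE 0.14) without library 5 and -0.27 (SE 0.14) without libraries 5 to 7. Of the 5 remaining libraries 4 lay within the baseline range.

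Its partner chain Ifngr2 behaved in another way at 1 h. From 34.0 ± 5.53 CPM (n = 15) at baseline, Ifngr2 rose to 92.3 ± 12.1 CPM (n = 8) with radiation and vehicle (log2 fold change 1.44, SE 0.11, edgeR adjusted p = 1.91e-15). With dmPGE2 before radiation it had 33.4 ± 4.22 CPM (n = 8), and dmPGE2 alone left it uncalled at 32.7 ± 5.72 CPM (n = 7; -0.05, SE 0.12, edgeR adjusted p = 0.876). Thus the binding chain was higher in both dmPGE2 groups at 1 h, and the partner chain was higher with radiation and vehicle.

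Ifnar1 encodes a chain of the receptor for type I interferons, at chr16:91485215-91510522 (plus strand), and had the lowest spread of the set at baseline (coefficient of variation 10.98%). Baseline libraries had 99.7 to 142 CPM (median 118 CPM), and irradiated vehicle libraries at 1 h 135 to 199 CPM (median 152 CPM), a rise of 0.41 on the log2 scale (SE 0.08, edgeR adjusted p = 0.000205) with partial overlap. Irradiated dmPGE2 libraries at 1 h had 80.8 to 110.3 CPM (median 95.1 CPM), below every irradiated vehicle library, with a log2 difference of -0.76 (SE 0.10). dmPGE2 alone lowered Ifnar1 to 91.05 to 109 CPM (median 98.04 CPM), by 0.27 on the log2 scale (SE 0.09, edgeR adjusted p = 0.0373), a call lost with same-tag libraries summed (-0.28, SE 0.10) and without any one of 4 of the 7 dmPGE2 libraries. The dmPGE2 difference was 0.49 log2 units lower with radiation than without (-0.49, SE 0.13), not called with baseline libraries of the same run (-0.41, SE 0.14).

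At 24 h Ifnar1 had fallen below baseline in both irradiated groups. With vehicle it had 69.1 to 119 CPM (median 85.9 CPM; log2 fold change -0.43, SE 0.09, edgeR adjusted p = 4.26e-05), and with dmPGE2 75.9 to 121 CPM (median 93.2 CPM; -0.30, SE 0.09, edgeR adjusted p = 0.00422). The dmPGE2 call was lost with baseline libraries of the same run (-0.21, SE 0.10). Ifnar2, the other chain, fell with dmPGE2 alone (-0.27, SE 0.08, edgeR adjusted p = 0.0139) and at 24 h with radiation and vehicle (-0.32, SE 0.08, edgeR adjusted p = 0.00037), and was not called with radiation at 1 h (-0.04, SE 0.07).

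Of 42 other cytokine receptor genes 40 could be tested. Their median log2 fold change was -0.05 with dmPGE2 alone, 0.003 with radiation at 1 h and -0.31 with radiation at 24 h, where the medians over all genes were 0.005, -0.003 and -0.06. With dmPGE2 alone 4 of the 40 rose (5.28% of all genes) and 3 fell (5.82%). Of called genes whose average log2 CPM reached 2, those that changed most were the IL-4 receptor gene Il4ra (133 ± 14.2 to 262 ± 60.7 CPM, log2 fold change 0.97, SE 0.16, edgeR adjusted p = 6.1e-06) and the TNF receptor gene Tnfrsf1b (251 ± 22.2 to 421 ± 74.1 CPM, 0.74, SE 0.09). Radiation with vehicle at 1 h raised 3 (8.65% of all genes) and lowered 1 (7.31%), with Ifngr2 and Il4ra (0.67, SE 0.15) ahead. At 24 h it raised 7 (23.3% of all genes) and lowered 16 (26.5%), among them Flt3, the receptor of multipotent and lymphoid progenitors (41.2 ± 10.1 to 7.67 ± 2.39 CPM, -2.42, SE 0.38, edgeR adjusted p = 6.88e-07), and the stem cell factor receptor Kit (1482 ± 250 to 674 ± 99.5 CPM, -1.14, SE 0.10). Between irradiated groups at 24 h, 19 of 40 were higher (12.4% of all genes) and 3 lower (11.5%) with dmPGE2. Without libraries 5 to 7 these were 9 (3.94%) and 2 (3.78%). Flt3 had 57.01 ± 62.1 CPM with dmPGE2, with 127, 95.7 and 163 CPM in libraries 5, 6 and 7 and 14.1 ± 6.80 CPM (n = 5) in the others.

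Of 33 JAK-STAT genes, 6 rose (5.28% of all genes) and 1 fell (5.82%) with dmPGE2 alone, and their median log2 fold changes in the same 3 comparisons were 0.13, 0.09 and -0.19. The feedback inhibitor Socs3 rose from 19.7 ± 7.25 CPM (n = 15) to 151 ± 84.02 CPM (n = 7; log2 fold change 2.94, SE 0.37, edgeR adjusted p = 3.58e-08), and Cish, which damps STAT5 signalling, by 1.23 (SE 0.18). Radiation with vehicle raised 8 (8.65% of all genes) and lowered 2 (7.31%) at 1 h, among them Cish (0.97, SE 0.17) and Socs4 (0.99, SE 0.17). At 24 h it raised 6 (23.3%) and lowered 15 (26.5%), and Stat5a fell by 0.75 (SE 0.08, edgeR adjusted p = 1.36e-11). In irradiated HSC at 1 h Socs3 had 393 ± 201 CPM with dmPGE2 and 13.7 ± 4.76 CPM with vehicle (n = 8 each), and Socs5 was lower with dmPGE2 (46.5 ± 6.40 against 110.5 ± 13.7 CPM). At 24 h Stat3 was higher with dmPGE2, at 430.5 ± 180 against 227 ± 15.3 CPM, and at 326 ± 28.6 CPM (n = 5) without libraries 5 to 7.

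The 9 genes of IL-1 signalling included 4 that rose (8.65% of all genes) and 1 that fell (7.31%) with radiation and vehicle at 1 h, such as Irak2 (25.0 ± 5.03 to 45.01 ± 11.5 CPM, 0.85, SE 0.17, edgeR adjusted p = 0.000222). At 24 h 1 rose (23.3%) and 6 fell (26.5%), and the medians at these times were 0.02 and -0.23. Myd88, the adaptor of IL-1 receptors, had 105 ± 6.62 CPM (n = 15) at baseline and rose to 173 ± 31.2 CPM (n = 8) with radiation and dmPGE2 at 24 h (0.71, SE 0.07, edgeR adjusted p = 1.07e-12), or 154 ± 18.8 CPM (n = 5) without libraries 5 to 7 (0.55, SE 0.07). Of 18 ligand genes only 7 had enough reads to test. Il21, Il3 and Ifna4 had no read in any library, while Il6 reached at most 33 reads and Ifng 11. The gp130 ligand gene Osm fell with radiation and vehicle at 1 h (9.36 ± 1.91 to 4.65 ± 1.21 CPM, -1.01, SE 0.24, edgeR adjusted p = 0.00128) and had 17.6 ± 2.56 CPM with dmPGE2 before radiation. Lif, another gp130 ligand gene, went the other way, from a mean of 0.53 CPM at baseline to 18.8 CPM with radiation and vehicle at 1 h (log2 fold change 5.15). With dmPGE2 before radiation Lif averaged 5.62 CPM. Il10, the ligand gene of Il10ra, averaged 0.11 CPM in irradiated vehicle HSC at 1 h and 30.6 CPM in irradiated dmPGE2 HSC. Csf1, the ligand gene of Csf1r, fell with dmPGE2 alone (19.5 ± 3.09 to 13.0 ± 2.19 CPM, -0.59, SE 0.20, edgeR adjusted p = 0.0436).

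Over the 54 libraries, which share treatment groups and the TMM scale, the genes with the pattern most like Ifngr1 were the phosphodiesterase gene Pde4b (Pearson r = 0.96), the kinase gene Stk17b (0.96) and Rnf125 (0.95). Those most like Il21r were Lmo2 (0.80), Bola1 (0.78) and Thbd (0.78), and those most like Ifnar1 were Rnf103 (0.84) and Peli1 (0.82). Among the receptors themselves, log2 CPM of Ifnar1 and Il6st correlated at 0.68 and those of Ifnar1 and Il21r at -0.75. These are descriptions over libraries of 6 groups and not tests.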

How the data were processed

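RNA of sorted HSC was copied with the SMART-Seq v4 kit and tagged with Nextera XT, per the labels' protocols. These kits mark no strand and add no molecular identifiers. The submitters' processing notes name STAR 2.5.2b, featureCounts (Subread 1.5.1) and the mm10 build. The deposited values are whole read counts per gene, per the file headers. For the strand setting and multimapping reads the treatment is not given in the sources used here. Columns were placed in groups by their names, those of 1 h by elimination, since the columns naming 24 h fill the irradiated groups of that time. Libraries are numbered in table order within a group.

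Genes were filtered with filterByExpr (count minimum 10), scaled by TMM and fitted with edgeR 4.0.16 in R 4.3.3 (robust quasi-likelihood, 1 mean per group, 54 libraries, 48 residual degrees of freedom, common dispersion 0.121). Benjamini-Hochberg adjustment covered 14320 genes, with calls below 0.05. The SE is derived from the F statistic. Marker sums use CPM without TMM factors. Alternatives were DESeq2 1.42.0, its size factors, no filter, the compared groups alone, a replicate block, sex and left-out libraries, and those on repeat tags and leaving out libraries 5 to 7 in comparisons with baseline, between times or for gene lists were chosen after seeing the data. The code was tested on simulated data. The series design counts mice per group. Whether same-tag baseline libraries come from separate animals was not tested, and p-values against baseline measure a spread between libraries that may be technical in part.

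The receptors and all lists were chosen with earlier results of these data known. From each list, named genes come from the 3 called genes with the highest absolute log2 fold change at a mean log2 CPM of at least 2. Il2rg, Il10rb, Il1rap, Csf2ra, Ifngr2 and Ifnar2 were added as second chains of the receptors. Lif and Il10 were added as further ligands. Genes of similar pattern are among the 3 with the highest Pearson r. In the main fit column tags were not taken to pair the groups, since in each pair of groups some same-tag libraries correlated at 0.1 or less. The lowest same-tag correlation within baseline, 0.067, was below 0.1 as well. A block on tags was fitted as an alternative.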

Additional observations from a re-analysis of the deposited data

Results flagged for a closer look

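Dixon's ratio was applied to 50 sets, each of them 1 receptor in 1 group of 4 to 10 libraries. Chance gives about 1 in 20 for a single set, but the sets share libraries and are not independent. In 8 of the 50 sets, 1 library lay far from the others. With radiation and dmPGE2 at 24 h these were library 5 for Il21r (50.7 CPM) and for Ifngr1 (957 CPM), and library 3 for Il6st (22.6 CPM). With radiation and vehicle at 24 h library 8 was low in Il1r1 (0.145 CPM) and in Csf1r (0.0482 CPM). At 1 h with radiation and vehicle library 1 was low in Il10ra (1.14 CPM) and Csf1r (4.32 CPM), and library 4 was high in Csf3r (211 CPM).

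The dmPGE2 difference in irradiated HSC differed between 24 h and 1 h, by an interaction contrast, for 6 receptors. It was lower at 24 h for Il21r (log2 difference -3.28), and higher for Il10ra (4.10), Il6st (1.11), Il6ra (1.69), Csf2rb (1.82) and Ifnar1 (0.88). Without libraries 5 to 7, Il6ra (0.71, SE 0.32) and Csf2rb (0.90, SE 0.37) were no longer called, and Il10ra was at 1.69 (SE 0.58). The dmPGE2 difference at 1 h differed between irradiated and non-irradiated HSC for Il21r (2.09) and Ifnar1 (-0.49). These receptors were chosen with earlier results of the same irradiated libraries known.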

How the results depend on the processing

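Of 570 values of single receptors under alternatives other than leaving out 1 library, 521 kept their direction and side of the threshold, 31 were no longer called, 11 became called and 7 changed sign. The 7 were Ifnar1 for dmPGE2 at 24 h without libraries 5 to 7 (-0.034), Il6ra for dmPGE2 alone with same-run baseline libraries (-0.036), and, for irradiated dmPGE2 at 24 h against baseline without libraries 5 to 7, Il10ra (-0.37), Il6ra (-0.73) and Ifngr1 (-0.27). The 2 others came with the replicate block on column tags: Csf2rb for radiation under dmPGE2 (0.024) and Il6ra for dmPGE2 alone (-0.016). Receptors called for dmPGE2 at 24 h numbered 7, but 4 with the replicate block, 3 with sex as a covariate and 2 without libraries 5 to 7. Il10ra, Il1r1 and Csf1r were lost with the block and with sex, and Il6ra with sex. Il1r1 and Csf1r were also lost with only the compared groups in the fit. With same-run baseline libraries 1 was called for dmPGE2 by radiation and 4 for irradiated dmPGE2 at 24 h against baseline.

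Same-tag correlations for the block were -0.015 to 0.068 between the 24 h groups and 0.068 to 0.335 between the irradiated 1 h groups, where 5 of 8 libraries correlated best with their own tag. They were 0.056 to 0.250 between the dmPGE2 groups of 1 h (6 of 8 best with their own tag), -0.063 to 0.166 between irradiated vehicle at 1 h and baseline (3 of 8), and 0.011 to 0.412 between dmPGE2 alone and baseline, where 10 of 13 pairs exceeded 0.1 and 7 of 7 libraries were best with their own tag. There the block called Il10ra lower (-1.19, SE 0.33, edgeR adjusted p = 0.00826). No paired analysis was possible for the comparisons of 24 h libraries with baseline because they share no tags. With the block all genes called numbered 3421 for dmPGE2 at 1 h (2121 without), 1352 at 24 h (3421 without), 2529 for dmPGE2 alone (1589 without), 3547 for radiation at 1 h (2285 without), 95 for radiation under dmPGE2 (54 without) and 942 for dmPGE2 by radiation (426 without). Only the compared groups gave 1507 for dmPGE2 at 24 h and 665 for dmPGE2 by radiation. Sex as a covariate gave 1815 for dmPGE2 at 24 h. Without libraries 5 to 7 it was 1123, and 2401 (3641 with them) for 24 h minus 1 h. Same-run baseline libraries gave 1244 for radiation at 1 h and 3100 (5206 with all) for irradiated dmPGE2 at 24 h against baseline.

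Leaving out 1 library at a time, called receptors ranged from 6 to 8 for dmPGE2 at 24 h, 4 to 5 at 1 h, 6 to 8 for 24 h minus 1 h, 2 to 3 for dmPGE2 alone, 2 to 4 for radiation at 1 h, 6 to 7 for radiation at 24 h and 5 to 7 for irradiated dmPGE2 at 24 h against baseline. They stayed at 0 for radiation under dmPGE2 and 2 for dmPGE2 by radiation. Genes with few reads, such as Il10ra and Il1r1, had the widest SEs. Causes of these changes were not tested.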
